A study of Drosophila melanogaster with 6 samples.

Results

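Among 18769 probe sets measured in fat bodies of Drosophila melanogaster larvae, 30 gave a signal in every wild-type array and only a weak one in every array of the srl1 mutant. They were chosen by their measured signals in the same 6 arrays: each was at or above a floor of 20.2 in all 3 wild-type arrays and under that floor in all 3 mutant arrays. The values below that separate the genotypes at these probe sets therefore describe the choice and support nothing. The rule kept 30 of the 7442 probe sets that reached the floor in all 3 wild-type arrays, which is 0.403%.

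The mutant larvae were homozygous for srl1, an allele of spargel (srl), and were titled KG. The wild-type larvae carried the unmutated gene on both chromosomes (srlwt/srlwt) and are described as the genetically matched control. Each genotype had 3 biological replicates, and each replicate was RNA from 20 pooled fat bodies of larvae aged 5 days. The protocol text speaks of mutant larvae for both genotypes, so the age of the wild type rests on the same sentence, and the allele acts in the whole animal and not in the fat body alone. The third mutant array is described under the second one's name, yet the values of these arrays were identical at 0 probe sets.

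Spargel is the PGC-1 family coactivator of flies, and mammalian members of that family raise the transcription of genes for mitochondrial function. The larval fat body combines tasks that vertebrates divide between liver and adipose tissue. It stores lipid and glycogen, secretes blood proteins, clears foreign compounds with cytochrome P450 enzymes and responds to circulating hormones and lipoproteins. In a tissue pool, fewer cells of a type and less RNA per cell cannot be told apart.

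The annotation gave 1 gene for 24 of the 30 probe sets, several genes for 3 and no gene for 3. Over the whole array it gave 1 gene for 13646 probe sets, several for 402 and none for 4721. No probe set was annotated to srl, so the mutated gene was not analysed here. Of the 24 genes, 17 had a gene name and 7 (29.2%) only a CG number. Among the 6584 probe sets with 1 gene that reached the floor in all wild-type arrays, 34.0% had only a CG number.

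The arrays differed in brightness before scaling, with trimmed means of 47.1 to 115 in mutant arrays and 98.5 to 127 in wild-type arrays. Mutant replicate 1 was scaled up 2.14 times. All 8 probe sets of the listed fat body storage and secreted proteins were above the floor in every wild-type array, and all 8 probe sets of nervous system markers were under it in all 6 arrays. The count of probe sets lower in the mutant rested on mutant replicate 2, being 1414 without it and 53 with it, so the counts of calls below are given with and without this array.

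The wild-type level of the 30 probe sets was low. Their mean wild-type signal had a median of 33.4 and ran from 23.1 to 247, against a median of 124 over the 7442 probe sets that reached the floor in all wild-type arrays. Only 2 of the 30 exceeded 100, and 22 were under 40.4, a level of 2 floors. The rule took 22 of 929 probe sets (2.37%) with a mean wild-type signal under 40.4. It took 6 of 1754 (0.342%) between 40.4 and 80.7, 1 of 1651 (0.0606%) between 80.7 and 161, and 1 of 3108 (0.0322%) above 161. A probe set near the floor needs only a small drop to cross it, so these shares follow the rule. Signals of different probe sets depend on their probes and do not rank the transcripts by amount.

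By a cutoff pooled over the arrays, the mutant signals were not all at background. The 90 mutant values of the 30 probe sets had a median of 12.8 and ran from 0.808 to 19.7. Pooled over the same arrays, 117 control probe sets named for neither a fly gene nor an added transcript had a median of 2.38. Their pooled 95th percentile was 13.4. It was not taken for each array, although mutant replicate 1 was scaled up 2.14 times, so the split below is not matched by array. Of the 90 mutant values, 50 were at or under that percentile and 40 were over it. At 7 probe sets all 3 mutant arrays were at or under 13.4, at 6 all 3 were over it, and at 17 the arrays were divided. By this cutoff the word "lost" does not hold for every one of the 30, and they are called here by the floor.

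**Figure D1:**
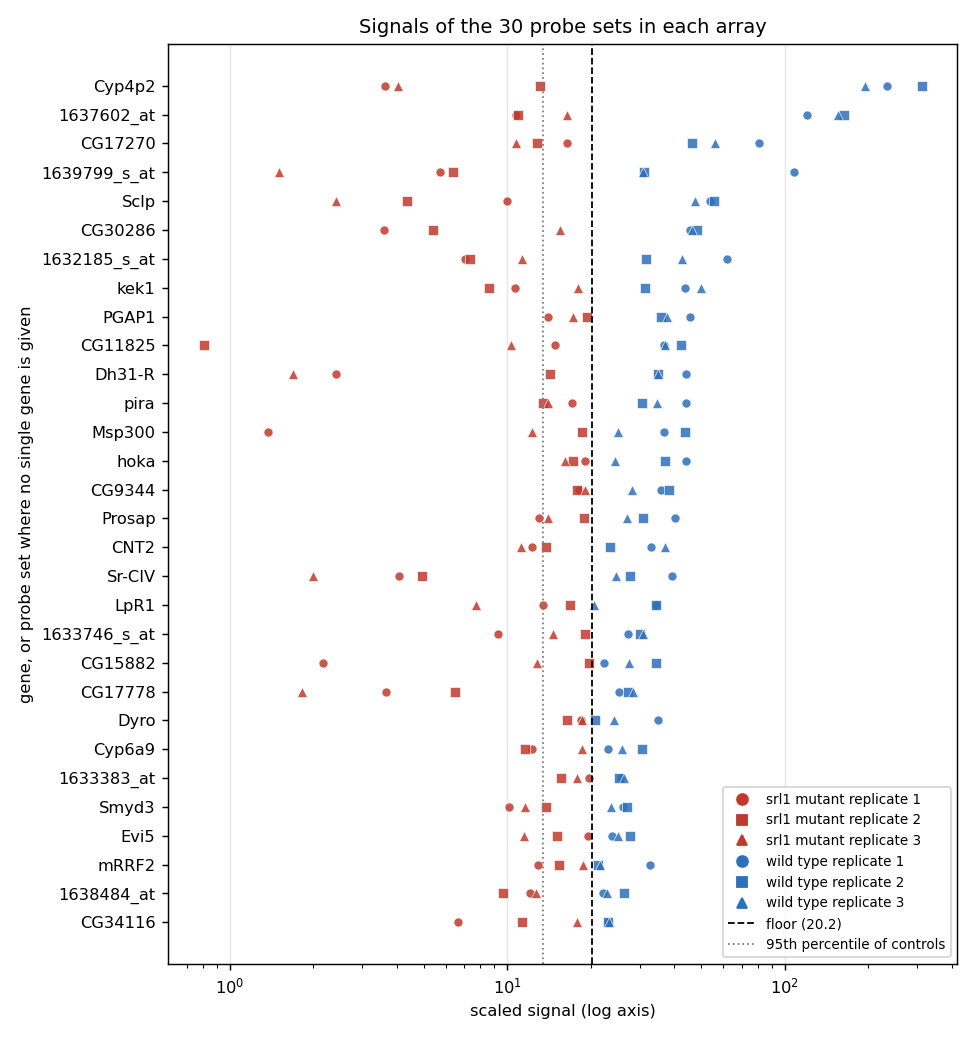
Scaled signal (log axis) of the 30 probe sets, in order of mean wild-type signal, with a point for each of 3 srl1 mutant arrays (red) and 3 wild-type arrays (blue). The dashed line is the floor of 20.2 and the dotted line the 95th percentile of the control probe sets pooled over arrays, 13.4. Most wild-type points lie just right of the floor, and Cyp4p2 and 1637602_at stand far from it.

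The gap between the genotypes, taken as the lowest wild-type signal over the highest mutant signal, had a median of 1.72. It was at least 2 at 11 probe sets, at least 3 at 6 and at least 4 at 5, and under 1.5 at 13. It was 14.9 at Cyp4p2 and 1.11 at Dyro, the extremes. The gap is a ratio of readings and no fold change where the mutant signals are at or under 13.4. Taken as the geometric mean of the wild-type signals over the floor, the difference was at least 12.0-fold at the top and had a median bound of 1.64-fold. Of the 30 probe sets, 8 had a bound of at least 2-fold. On the scale of log2(signal + 5), the difference of mutant minus wild type had a median of -1.04 and ran from -4.46 to -0.44, while the median over all 8506 probe sets tested was 0.10.

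**Figure D2:**
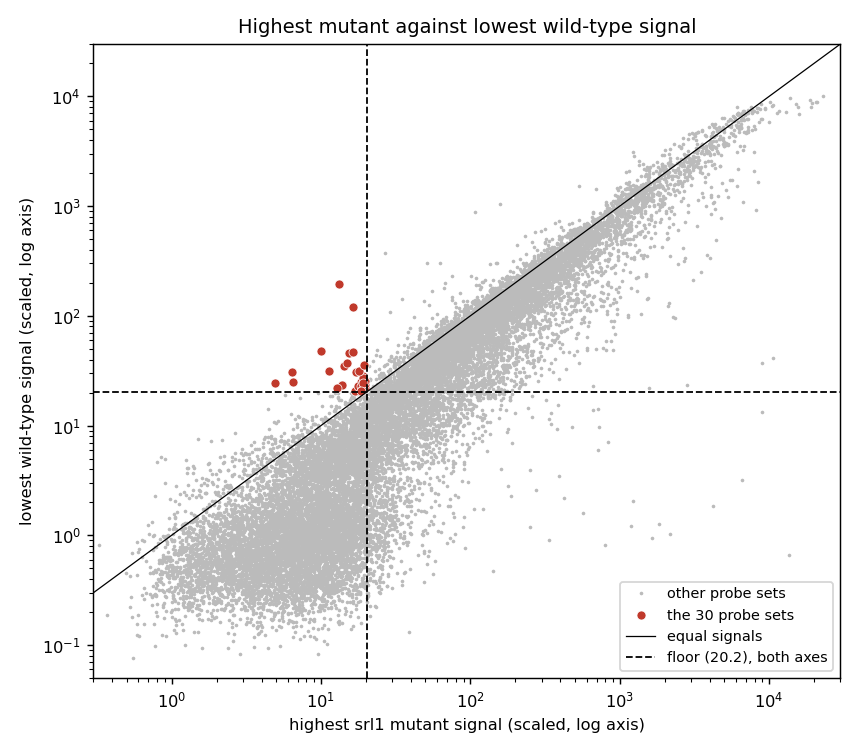
Highest signal among the 3 srl1 mutant arrays (x axis, scaled, log) against the lowest among the 3 wild-type arrays (y axis, scaled, log) for all 18769 probe sets, with the floor of 20.2 as dashed lines and equal signals as the solid line. The 30 probe sets (red) fill the upper left quadrant, and 19 of them have a gap under 2.

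A fit across all 8506 probe sets that reached the floor in at least 3 arrays put 53 (0.623%) lower in the mutant (limma, adjusted p under 0.05). All 30 probe sets entered that fit, as the rule requires, and 8 of the 30 were among the 53. The rule used the same contrast, so nothing is read from this count and the 8 are not singled out. The count was 21 without mutant replicate 2, where 1414 of all 8506 were lower. It was 2 or 3 without any other array, where 7 to 14 of all 8506 were lower.

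Both cytochrome P450 genes of the group encode enzymes of a family that oxidises hormones, lipids and foreign compounds. Cyp4p2 had signals of 3.64, 13.1 and 4.06 in mutant replicates 1, 2 and 3, against 234, 312 and 195 in wild-type replicates 1, 2 and 3. No mutant value was above 13.4, the 95th percentile of the controls, so the wild-type geometric mean was at least 12.0-fold higher, taken against the floor. The arithmetic means were 6.94 ± 5.35 in mutant arrays and 247 ± 59.4 in wild-type arrays (SD, n = 3 each). Cyp6a9 lay close to the floor, at 11.6 to 18.6 in mutant arrays and 23.0 to 30.6 in wild-type arrays. Its gap was 1.24.

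The other P450 genes, a family looked at after the members were known, moved in both directions. Of 83 probe sets with a single P450 gene, 40 reached the floor in all wild-type arrays, and Cyp4p2 and Cyp6a9 were the 2 that the rule kept. Of the 46 others in the fit, 33 had a higher and 13 a lower mean in the mutant, and their median log2 difference was 0.34, which was -0.03 with median centring, where the median of all probe sets was -0.25. In the fit without centring, 4 of the 46 rose and 3 fell in the mutant, where 0.764% of all probe sets tested rose and 0.623% fell. Cyp6w1, Cyp9c1 and Cyp309a1 rose, with log2 differences of 1.99, 1.50 and 2.65 (limma adjusted p = 0.0142, 0.0136 and 0.0418). Cyp6a17 rose to 41.4 to 89.6 in mutant arrays, against 1.20 to 6.93 in wild-type arrays, which is not above the controls, so no size is given (limma adjusted p = 0.0223). Cyp4ac3, Cyp6d5 and Cyp310a1 fell, with log2 differences of -1.57, -1.89 and -0.81 (limma adjusted p = 0.0147, 0.0406 and 0.0493). With median centring 3 rose and 3 fell of 45 tested, and Cyp9c1 and Cyp310a1 did not pass (limma adjusted p = 0.111 and 0.0925). Without mutant replicate 2 there were 19 that rose and 9 that fell among the 46, where 1738 of all 8506 rose and 1414 fell. Without any other array at most 2 of the 46 rose and at most 1 fell, where 10 to 40 of all 8506 rose and 7 to 14 fell. Cyp4p1, the gene next to Cyp4p2 on the reference genome, had 53.5 to 69.0 in mutant arrays and 97.8 to 104 in wild-type arrays. Its groups did not overlap, yet its log2 difference of -0.64 did not pass (limma adjusted p = 0.118). Cyp4p3, of the same subfamily, had 230 to 501 in mutant arrays and 453 to 782 in wild-type arrays, and its groups overlapped (limma adjusted p = 0.151).

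Dh31-R and LpR1 encode receptors, and Sr-CIV is named for a receptor class. The per-array values of Dh31-R, LpR1 and Sr-CIV are shown because of these roles or names and were picked after they were seen. Dh31-R encodes the G protein-coupled receptor of diuretic hormone 31, a peptide related to calcitonin. Its chosen probe set had 2.41, 14.3 and 1.69 in mutant replicates 1, 2 and 3, against 44.0, 34.9 and 34.9 in wild-type replicates 1, 2 and 3. Mutant replicate 2 was the highest mutant array here as well, and the gap was 2.44.

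Sr-CIV is named for the class C scavenger receptors, and where its product acts was not analysed here. It had 4.09, 4.91 and 1.99 in mutant replicates 1, 2 and 3 and 39.2, 27.8 and 24.7 in wild-type replicates 1, 2 and 3. All mutant values were under the 95th percentile of the controls, so the wild-type geometric mean was at least 1.48-fold higher, taken against the floor. LpR1 encodes a lipophorin receptor, a member of the LDL receptor family that serves the uptake of neutral lipid from the blood. It had 13.4, 16.9 and 7.74 in mutant arrays and 34.3, 34.4 and 20.5 in wild-type arrays, in the order of replicates. Wild-type replicate 3 was barely above the floor, and the gap was 1.21. The neighbouring gene LpR2 encodes the other lipophorin receptor, and its signals overlapped between 15.8 to 26.2 in mutant arrays and 19.5 to 30.2 in wild-type arrays.

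The gene kek1 encodes a transmembrane protein with leucine-rich repeats that inhibits the epidermal growth factor receptor. Its signal was 10.7, 8.60 and 18.0 in mutant replicates 1, 2 and 3, against 43.6, 31.3 and 50.1 in the wild-type replicates. Here replicate 3 was highest in both genotypes, and the gap was 1.74.

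CNT2, a concentrative nucleoside transporter, had 11.2 to 13.9 in mutant arrays and 23.4 to 37.1 in wild-type arrays. PGAP1 carries the name of the enzyme that remodels glycosylphosphatidylinositol anchors in mammals. It had 14.1, 19.3 and 17.3 in mutant replicates 1, 2 and 3 and 45.7, 35.9 and 37.7 in the wild-type replicates, so mutant replicate 2 came near the floor. The gene mRRF2, whose product helps to recycle mitochondrial ribosomes, had 12.9 to 18.8 in mutant arrays and 21.3 to 32.6 in wild-type arrays, a gap of 1.13. CG11825, listed with the synonym dHIG1, had 14.9, 0.808 and 10.3 in mutant arrays and 36.9, 42.5 and 37.0 in wild-type arrays. The wild-type arrays were close to each other, and mutant replicate 2 was far below the other mutant arrays. Smyd3, named for a family of lysine methyltransferases with SET and MYND domains, had 10.2 to 13.8 in mutant arrays and 23.7 to 27.0 in wild-type arrays.

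Msp300, the fly nesprin that positions nuclei in muscle, had 1.37 to 18.6 in mutant arrays and 25.2 to 43.8 in wild-type arrays. Prosap, the fly member of the Shank family of synaptic scaffold proteins, had 13.1 to 19.0 in mutant arrays and 27.1 to 40.4 in wild-type arrays. The septate junction gene hoka had 16.1 to 19.1 in mutant arrays and 24.4 to 43.9 in wild-type arrays. Evi5, a regulator of Rab GTPases, had 11.5 to 19.6 in mutant arrays and 23.9 to 27.6 in wild-type arrays. The gaps of these 4 genes were all under 1.5.

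For the next genes no role is stated here. Sclp had 10.01, 4.34 and 2.42 in mutant replicates 1, 2 and 3, against 53.9, 55.6 and 47.7 in the wild-type replicates. All mutant values were under the 95th percentile of the controls, so the wild-type geometric mean was at least 2.59-fold higher, taken against the floor. CG30286, listed with the synonym SPH37, had 3.60, 5.43 and 15.5 in mutant arrays and 45.5, 48.4 and 46.5 in wild-type arrays. CG17270 had 16.4, 12.8 and 10.8 in mutant arrays and 80.9, 46.4 and 56.2 in wild-type arrays, with wild-type replicate 1 highest. CG17778 had 1.82 to 6.50 in mutant arrays and 25.2 to 28.4 in wild-type arrays, where its geometric mean was 1.33 times the floor.

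The gene pira had 13.4 to 17.2 in mutant arrays and 30.6 to 44.0 in wild-type arrays. CG9344 had 17.9 to 19.0 in mutant arrays and 28.1 to 38.2 in wild-type arrays. CG34116 had 6.65 to 17.8 in mutant arrays and 23.1 to 23.3 in wild-type arrays, where its coefficient of variation of 0.483% was the smallest of the 30. CG15882 had 2.18 to 19.7 in mutant arrays and 22.3 to 34.4 in wild-type arrays, and its mutant replicate 2 nearly reached the floor. Dyro had 16.4 to 18.7 in mutant arrays and 20.8 to 35.0 in wild-type arrays.

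Among the 3 probe sets annotated to several genes, 1637602_at had 10.8, 10.9 and 16.5 in mutant replicates 1, 2 and 3, against 120, 164 and 156 in the wild-type replicates. Its gap of 7.29 was the second largest. A further probe set annotated to the same genes, 1632200_s_at, had 29.2, 33.7 and 46.2 in mutant arrays and 82.0, 77.2 and 84.6 in wild-type arrays. Its groups did not overlap either, as at 13.4% of all probe sets tested. Probe set 1631669_at, annotated to part of these genes, had 29.3, 12.1 and 9.35 in mutant arrays and 11.7, 6.88 and 10.2 in wild-type arrays. There the groups overlapped. Probe set 1632185_s_at had 7.06, 7.35 and 11.3 in mutant arrays and 62.2, 31.7 and 42.6 in wild-type arrays. Probe set 1637873_at, annotated to part of its genes, had 4.84, 4.29 and 3.65 in mutant arrays and 7.56, 19.6 and 11.8 in wild-type arrays. All of these were under the floor. Probe set 1639799_s_at had 5.75, 6.38 and 1.51 in mutant arrays and 108, 31.1 and 30.8 in wild-type arrays. Wild-type replicate 1 stood far above the other wild-type arrays there, which gave the largest coefficient of variation of the 30, 78.7%. The 3 probe sets without a gene had mutant signals of 9.25 to 19.7 and wild-type signals of 22.1 to 31.0.

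Other probe sets of the same genes gave a second reading of 5 of the 24 genes. There were 12 such probe sets, of which 9 entered the fit, and at 2 of these 9 every mutant signal was below every wild-type signal, as at 13.4% of all probe sets tested. The second probe set of Dh31-R was 1 of the 2. It had 28.8, 28.0 and 25.3 in mutant replicates 1, 2 and 3, against 111, 109 and 130 in the wild-type replicates. The separation was 3.77 times, wider than at the chosen probe set, and here mutant replicate 2 lay between the other mutant arrays.

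The second probe set of LpR1 had 76.9, 106 and 66.6 in mutant arrays and 222, 162 and 106 in wild-type arrays. Mutant replicate 2 and wild-type replicate 3 nearly coincided, while the mean was 83.3 ± 20.6 in mutant arrays and 163 ± 58.0 in wild-type arrays (SD, n = 3 each). One further probe set of Prosap (1625236_s_at) was separated by a gap of 1.13, and the other (1629160_s_at) overlapped. The 3 other probe sets of Evi5 overlapped between the genotypes, and their means were 26.5 to 72.3 in mutant arrays and 22.8 to 68.3 in wild-type arrays. For Msp300, none of the 5 other probe sets separated the genotypes. Their mean signals were 0.620 to 188 in mutant arrays and 0.913 to 161 in wild-type arrays. Which transcripts each probe set reads was not analysed here.

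**Figure D3:**
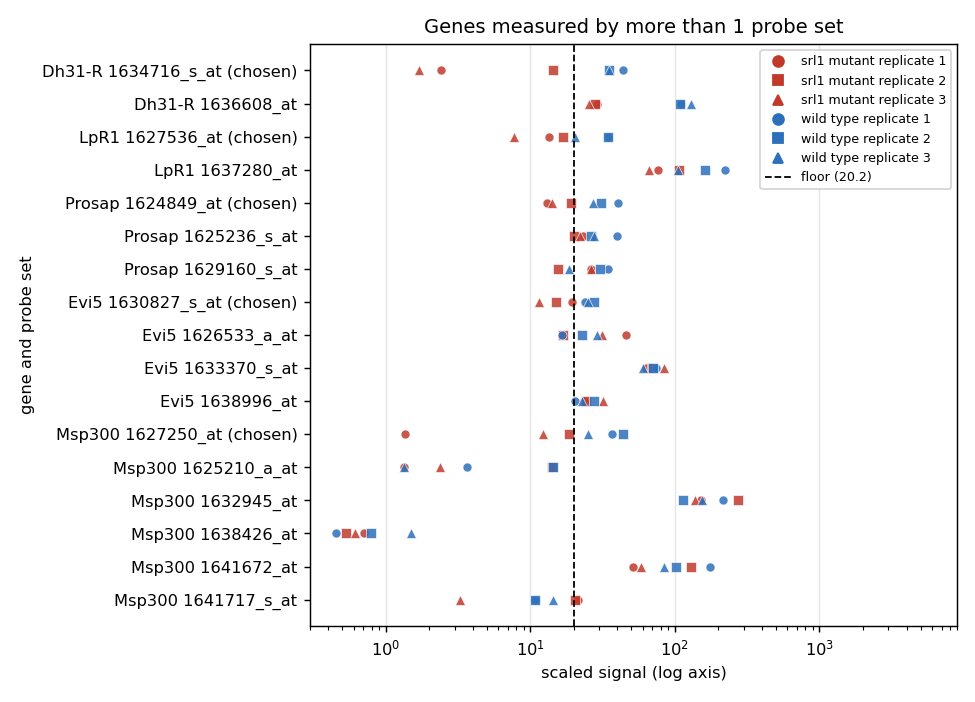
Scaled signal (log axis) in each of 3 srl1 mutant arrays (red) and 3 wild-type arrays (blue) for the 5 genes with more than 1 probe set, with the probe set chosen by the floor marked. The second probe set of Dh31-R keeps the genotypes apart, and those of Evi5 and Msp300 do not.

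The neighbours of the 24 genes on the reference genome lay in both directions. Of 50 probe sets for 47 adjacent protein-coding genes, 22 entered the fit, and 9 of these were lower in the mutant by fitted mean. Their median log2 difference was 0.04, against 0.10 over all probe sets tested, and with median centring these were -0.32 and -0.25. A single neighbour fell in the fit on all arrays and none rose, with or without median centring. Without mutant replicate 2 there were 6 of the 22 that fell and 7 that rose, where 1414 of all 8506 fell and 1738 rose. The single neighbour that fell with all arrays was Prx6c beside CG11825. It was called whichever array was left out (limma adjusted p of 0.000707 to 0.0359), and it is named because of its values. It is named for the peroxiredoxins, enzymes that reduce peroxides. It had 65.7, 45.6 and 108 in mutant replicates 1, 2 and 3, against 884, 1179 and 919 in the wild-type replicates. All mutant values were above the floor, so the rule did not take it.

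Within each genotype the arrays shared the extremes fairly evenly at the 30 probe sets. Mutant replicates 1, 2 and 3 held the highest mutant signal at 7, 13 and 10 of them, with medians of 11.4, 13.6 and 12.8. Over all 8832 probe sets under the floor in every mutant array, the corresponding shares were 53.4%, 24.6% and 22.1%. Wild-type replicates 1, 2 and 3 held the highest wild-type signal at 11, 13 and 6 of them, with medians of 36.8, 31.2 and 28.3. Over the 7442 probe sets the shares were 34.2%, 32.1% and 33.7%. The coefficient of variation among wild-type arrays had a median of 17.4% at the 30 probe sets and 13.1% at the 7442, and 10 of the 30 were under 10%. These medians are not matched for level, as the median wild-type signal was 33.4 at the 30 and 124 at the 7442.

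An array left out of the choice gave values that the choice on 5 arrays had not used, although scaling and floor came from all arrays. By construction the probe sets kept are the same 30 each time. The shares therefore differ only by the number chosen and are no independent support. Choosing on 5 arrays and reading the sixth kept 30 of 54 probe sets for mutant replicate 1 (55.6%), 30 of 77 for mutant replicate 2 (39.0%) and 30 of 36 for mutant replicate 3 (83.3%). For wild-type replicates 1, 2 and 3 it kept 30 of 37 (81.1%), 30 of 38 (78.9%) and 30 of 52 (57.7%). For comparison, 2.31%, 1.50% and 2.67% of the 7442 probe sets that reached the floor in all wild-type arrays were under it in mutant replicates 1, 2 and 3. Of the 8832 probe sets under the floor in all mutant arrays, 1.25%, 1.12% and 0.849% reached it in wild-type replicates 1, 2 and 3. These shares are not matched for level, and probe sets near the floor cross it more often. Among the 929 with a mean wild-type signal under 40.4, the shares under the floor were 11.3%, 9.36% and 11.8% in mutant replicates 1, 2 and 3. At that level, 22 of 39, 22 of 52 and 22 of 28 probe sets chosen on the other 5 arrays were under it. Among 881 with a mean mutant signal of at least 10.1, 7.38%, 6.92% and 5.56% reached the floor in wild-type replicates 1, 2 and 3, against 21 of 28, 21 of 23 and 21 of 33 of those chosen on the other 5 arrays. How often probe sets chosen on 5 arrays would stay with no difference between the genotypes was not tested.

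Mutant replicate 2 left the group most often. At the 77 probe sets chosen without it, its signal had a median of 23.5 and reached 200, and it was below all 3 wild-type arrays at 46 of them. Wild-type replicate 3 had a median of 23.5 at the 52 probe sets chosen without it and was above all mutant arrays at 38. No test was made of these shares, since the probe sets of 1 array are not independent.

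**Figure D4:**
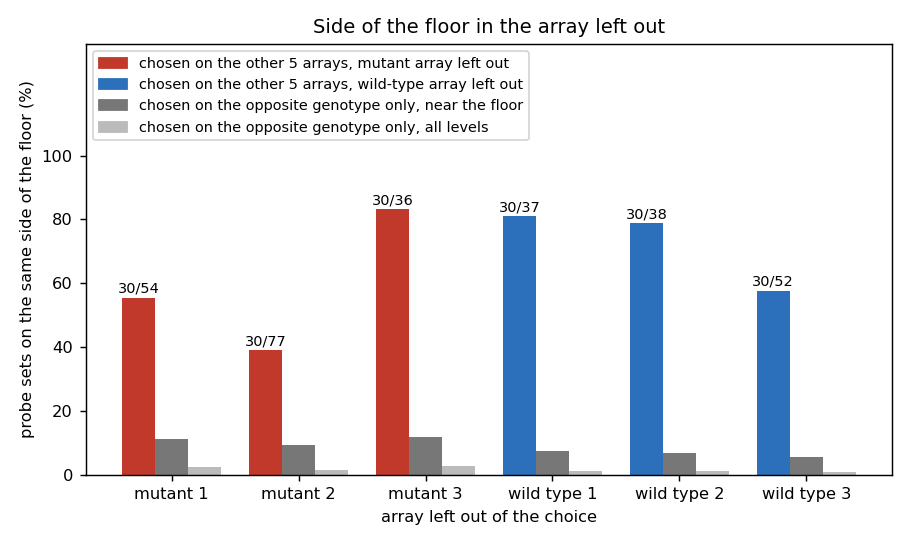
Share of probe sets (%) on the same side of the floor in an array that was left out of the choice, for srl1 mutant arrays (red) and wild-type arrays (blue), with counts above the bars. Dark grey bars give the share among probe sets near the floor chosen on the opposite genotype only, and light grey bars the same at all levels. The coloured bar of mutant replicate 2 is the lowest at 39.0%, and the dark grey bars run from 5.56% to 11.8%.

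The edge of the group was thin. At 6 of the 30 a value lay within 5% of the floor, either the lowest wild-type signal (LpR1 at 20.5 and Dyro at 20.8) or the highest mutant signal (PGAP1, CG15882, Evi5 and 1633383_at, 19.3 to 19.7). Just outside were 8 probe sets with a wild-type array within 5% under the floor and 4 with a mutant array within 5% over it. One of the 8 was a probe set of Cyp18a1, a P450 that inactivates the moulting hormone ecdysone. It had 9.50, 4.63 and 7.89 in mutant arrays and 34.3, 20.0 and 25.6 in wild-type arrays. The wild-type value of replicate 2 kept it out. A further probe set of Cyp18a1 had 37.2, 16.1 and 11.7 in mutant arrays and 27.7, 30.1 and 29.6 in wild-type arrays, so there the groups overlapped (limma adjusted p = 0.393). One of the 4 was Cpr47Eb, named for the cuticular proteins, with 18.4, 21.1 and 8.68 in mutant arrays and 71.9, 35.1 and 41.3 in wild-type arrays. These near misses were picked after their values were seen.

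The count depended on the floor and on the scaling. With the floor at 10.1 the rule kept 30 probe sets, of which 4 were among the 30 above, namely Sclp, Sr-CIV, CG17778 and 1639799_s_at. With the floor at 40.4 it kept 35, of which 5 were among the 30, namely Cyp4p2, CG17270, Sclp, CG30286 and 1637602_at. Sclp was in both. Quantile normalization gave 58 and median centring 61 probe sets, and each kept 25 of the 30. On the deposited values without scaling there were 41, of which 19 were among the 30. The opposite pattern, under the floor in all wild-type arrays and at or above it in all mutant arrays, was found at 91 of all 18769 probe sets. This count is given for the main scaling only. Mutant replicates 1, 2 and 3 had 9502, 8181 and 8710 probe sets at or above the floor, and wild-type replicates 7820, 8253 and 8212. The counts of 30 and 91 are therefore not set against each other.

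None of the 30 belonged to the 13 gene lists for fat body function, mitochondria and other tissues. The lists covered 129 probe sets, 75 of them at or above the floor in every wild-type array. The rule kept only 0.403% of all probe sets at or above the floor there, so nothing is read from this absence. The lists are short, and mRRF2, whose product acts on mitochondrial ribosomes, is among the 30 but on none of them. For the respiratory chain, 17 of 18 probe sets reached the floor in all wild-type arrays. None of these 17 passed in the fit, 7 were lower at an unadjusted p under 0.05 (limma), and the median log2 difference was -0.67. The mitochondrial ribosome and biogenesis list had a median of -0.82 over 12 tested probe sets, with none called and 7 lower at an unadjusted p under 0.05 (limma). Over all 8506 probe sets, 12.3% were lower at an unadjusted p under 0.05. With median centring the medians of these lists were -1.05 and -1.20, while that of all probe sets tested moved from 0.10 to -0.25. At an unadjusted p under 0.05 (limma), 14 of 17 and 8 of 12 were then lower, as were 18.8% of all. The summed respiratory chain signal was 22882, 43455 and 24056 in mutant replicates 1, 2 and 3, against 39483 to 47170 in wild-type arrays. The summed signal of the mitochondrial ribosome and biogenesis list was 3094, 6382 and 3359 in mutant replicates 1, 2 and 3, against 5986 to 7211 in wild-type arrays. In both sums mutant replicate 2 lay within the wild-type range and the other mutant arrays below it. Without mutant replicate 2, 17 of 17 respiratory chain probe sets and 9 of 12 of the other list fell (limma), where 1414 of all 8506 did. The median log2 difference was 0.27 for the 8 tested fat body storage probe sets and 0.02 for 15 of lipid and carbohydrate metabolism. It was 0.08 for 7 of insulin signalling and 0.34 for 2 of antimicrobial peptides, against 0.10 over all probe sets tested. With median centring these 4 medians were -0.12, -0.37, -0.29 and -0.001, against -0.25 over all, so their signs depended on the scaling. Of these 4 lists, only lipid and carbohydrate metabolism had a call without centring, 1 probe set that rose. At an unadjusted p under 0.05 (limma), the other 3 had 1 lower and 2 higher, 0 lower and 2 higher, and 0 in either direction. Without mutant replicate 2, fat body storage had 1 that fell and 2 that rose, lipid and carbohydrate metabolism 3 and 4, insulin signalling 0 and 2, and antimicrobial peptides 0 of either. Over all 8506 probe sets 1414 fell and 1738 rose without that array.

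Markers of other tissues differed between arrays. Salivary gland markers summed to 47404, 15577 and 40680 in mutant replicates 1, 2 and 3, against 6943, 5867 and 33551 in wild-type replicates 1, 2 and 3. Mutant replicate 2 was low and wild-type replicate 3 high, so the groups overlapped. Their median log2 difference was 4.80 over 10 probe sets, none of them under the floor in all 6 arrays and none called. Gonad markers summed to 682 to 1779 in mutant arrays and 385 to 800 in wild-type arrays over 12 probe sets. Cuticle, trachea and disc markers summed to 2997 to 8375 in mutant arrays and 1659 to 3364 in wild-type arrays over 3 probe sets. Gut markers summed to 1305 to 2473 in mutant arrays and 374 to 2092 in wild-type arrays over 9. Haemocyte markers summed to 1167 to 1186 in mutant arrays and 892 to 1003 in wild-type arrays over 10, and muscle markers to 143 to 308 in mutant arrays and 143 to 244 in wild-type arrays over 9. One gut probe set rose and no other marker passed (limma), while 4 salivary gland, 2 gonad and 1 cuticle, trachea and disc probe sets were higher at an unadjusted p under 0.05, as were 15.0% of all tested. Without mutant replicate 2, salivary gland markers had 3 that fell and 2 that rose, gonad markers 2 that rose, and gut, haemocyte and the cuticle, trachea and disc markers 1 each that rose (limma). Of all 8506 probe sets, 1414 fell and 1738 rose without that array. The part of these differences in the 30 probe sets was not tested.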

How the data were processed

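The authors deposited signal intensities, 1 per probe set and array, which GCOS 1.4 and MAS5 made per the submitters' processing notes; the settings were not given in the sources used here. Per the labels' protocols, each sample started from 30 ng of total RNA, with a 2-cycle amplification and biotin label. Each array was divided by its mean after trimming 2% from each end, over all 18952 probe sets, and multiplied by the mean of the 6 trimmed means, 101. The floor was that value divided by 5. Probe sets were named from the platform annotation, with symbols updated through gene IDs in the RefSeq table of assembly GCF_000001215.4, which also gave neighbouring genes. The fit was limma 3.58.1 in R 4.3.3 on log2(signal + 5) with an intensity trend. It was two-sided with Benjamini-Hochberg adjustment, for probe sets at or above the floor in at least 3 arrays. A run on simulated data used independent errors and no deviation shared by a whole array. It therefore cannot show how the fit behaves with an array such as mutant replicate 2. The members and lists were chosen with earlier results of these data known. The rule for named genes printed per-array values for the 10 members of highest mean wild-type signal; others are said to be outside it. Groups and replicate numbers come from the sample titles, and the series' design calls the replicates biological. The number of arrays limits the precision. The p-values weigh a difference between the genotypes against the spread among these samples, moderated over all probe sets tested. Alternatives were other scalings, floors, pseudocounts, filters and variance trends, a replicate block, and the omission of single arrays. Sequences were not used here.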

Additional observations from a re-analysis of the deposited data

How the results depend on the processing

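The count of 30 was 61 with median centring, 58 with quantile normalization and 11 where a gap of at least 2 was required. It was 36 to 77 when 1 array was left out, with 77 without mutant replicate 2, 54 without mutant replicate 1 and 52 without wild-type replicate 3. By construction fewer arrays then restrict the choice. The 53 probe sets lower in the fit became 82 with median centring, which moved the median log2 difference of all probe sets to -0.25, and 6 with the replicate block. They were 7 to 1414 when 1 array was left out, with 1414 without mutant replicate 2. Of the 30, 8 were called lower, 3 with no filter, where more probe sets were tested, 2 with the replicate block and 2 to 21 when 1 array was left out. The cause of the other changes was not tested. For numbers 1, 2 and 3, the deviations of same-numbered arrays correlated at -0.346, -0.115 and 0.449, and 2 of 6 arrays correlated best with their own number, so no pairing is taken from the numbers. Background limits what signals close to 20.2 can show. The fits of P450 genes and neighbours under other scalings and without single arrays, and the shares near the floor, were chosen after seeing the data. With quantile normalization 1 P450 probe set fell and 4 rose, against 3 and 4.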
